A study of Capra hircus with 6 samples.

Results

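HSPA8, the constitutive HSP70 of the cytosol, works with a large set of partner chaperones, and the genes of those partners are described here in goat cells in which either HSPA8 or the ubiquitin hydrolase UCHL1 had been knocked down. The genes were chosen by symbol. They are the entries whose symbol starts with DNAJ, HSP90, HSPB, HSPD, HSPE or HSPH, the co-chaperones BAG1 to BAG6, STIP1, STUB1 and ST13, the chaperonin subunits TCP1 and CCT2 to CCT8, and the transcription factor HSF1. The rule finds 78 of the 33229 entries in the deposited table, of which 74 have read counts (of 16599 entries with counts) and 70 passed the low-count filter (of 12665 genes tested). RNA sequencing covered 6 libraries of mGSCs-I-SB cells from goat (Capra hircus). The labels call them spermatogonial stem cells, which renew themselves and feed sperm production in the testis. All cells were kept in medium with 10% fetal bovine serum and carried short hairpin RNA, which lowers a target transcript. The lines were shUCHL1 (hairpin RNA against UCHL1, 2 libraries), shHSPA8 (hairpin RNA against HSPA8, 2 libraries) and shCON (control hairpin RNA, labelled WT, 2 libraries). The series title sets UCHL1 against HSPA8 as opposing genes. The labels give neither the number of hairpins per gene nor the clonality of a line. They also leave unsaid whether the replicates are separate cultures. P-values thus measure only how far these libraries differ, which may be technical variation.

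HSP70 binds unfolded stretches of protein in a cycle driven by ATP. J-domain proteins (DNAJ, or HSP40) bring it clients and speed up ATP hydrolysis, and nucleotide exchange factors (HSPH1, HSPBP1 and the BAG proteins) make it let go. STIP1 hands clients on from HSP70 to HSP90, ST13 steadies the client-bound form, and STUB1 (CHIP) is a ubiquitin ligase that marks clients of both for the proteasome. The small heat shock proteins (HSPB) hold unfolding proteins without ATP, and the chaperonins, TCP1/CCT in the cytosol and HSPD1 with HSPE1 in mitochondria, are closed chambers in which proteins such as actin and tubulin (TCP1/CCT) or imported mitochondrial proteins fold. HSF1 is the transcription factor of the heat shock response; in mammals DNAJB1, HSPH1, HSPB1, HSP90AA1, HSPD1 and HSPE1 are among its known targets. In the testis, germ cells use tissue-specific relatives of several of these chaperones.

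Library totals ran from 15710532 to 16417274 counts. UCHL1 stood at 94.3 and 97.7 CPM in shUCHL1, 386 and 334 CPM in shHSPA8, and 405 and 451 CPM in shCON. HSPA8 stood at 5252 and 5345 CPM in shUCHL1, 2631 and 2528 CPM in shHSPA8, and 4016 and 4112 CPM in shCON, so each hairpin line had the lowest level of its own target. HSPA8 was called lower in shHSPA8 (log2 fold change -0.66, SE 0.07, edgeR adjusted p = 0.00126) and higher in shUCHL1 (log2 fold change 0.38, SE 0.07, edgeR adjusted p = 0.0129). CPM are read counts scaled to library size with TMM factors. A log2 fold change is that of the line named first over the line named second, with its standard error (SE). A gene is called higher or lower where its adjusted p in edgeR's quasi-likelihood test is under 0.05. Of 15 markers listed for spermatogonial stem cells and germ cells, 9 had read counts and 5 (UCHL1, ID4, THY1, ITGA6 and DDX4) averaged at least 1 CPM. SYCP3 and KIT were at or near 0. GFRA1 averaged 0.182 CPM in shUCHL1, 0.643 CPM in shHSPA8 and 0.814 CPM in shCON and was not called. RET averaged 1.33 CPM in shUCHL1, 0.577 CPM in shHSPA8 and 0.249 CPM in shCON. Of the 7 tested, 2 were called higher in shUCHL1 than in shCON (RET and ID4; 28.6%, beside 8.54% of all genes). Another 2 were called lower there (UCHL1, the target, and THY1, 28.6%, beside 7.15%). In shHSPA8 against shCON only ID4 was called, as higher (14.3%, beside 8.66%). ZBTB16, NANOS2, SALL4, LIN28A, DAZL and STRA8 had no read counts. In shCON UCHL1 averaged 428, THY1 154 and ITGA6 82.4 CPM, so the list was mixed and does not settle the identity of the cells. All 9 myoid and fibroblast markers averaged at least 1 CPM, and with COL1A1 and COL1A2 among them they summed to between 17326 and 23075 CPM per library. Sertoli cell markers (4 of 8 tested) summed to 134 and 135 CPM in shUCHL1, 90.4 and 91.5 CPM in shHSPA8, and 179 and 187 CPM in shCON. Leukocyte markers (4 of 5 tested, almost all of the sum from LCP1 and CD14) summed to 175 and 189 CPM in shUCHL1, 299.7 and 305 CPM in shHSPA8, and 499 and 505 CPM in shCON, with PTPRC, which defines them, at or near 0. The fall of that sum came from LCP1, which averaged 129 CPM in shUCHL1, 236 CPM in shHSPA8 and 460 CPM in shCON. CD14 went the other way, at 47.5, 58.5 and 36.0 CPM in the same order. It was called higher in shHSPA8 than in shCON (edgeR adjusted p = 0.00662) and was not called in shUCHL1. The part of all these markers in the results on the chaperone genes was not tested. The replicates of shCON differed most: over the 60 members with at least 10 CPM, the median absolute log2 ratio of replicate 1 to replicate 2 was 0.06 in shUCHL1, 0.10 in shHSPA8 and 0.13 in shCON.

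Per transcript length, HSP90 genes were the most abundant members. In deposited FPKM averaged over 6 libraries, HSP90AA1 stood at 1562, HSP90AB1 at 876 and HSP90B1 at 836 FPKM. HSPB1 at 411 FPKM was the highest small heat shock gene, at a level like that of TCP1, the highest chaperonin subunit, also at 411 FPKM. DNAJA1 at 241 FPKM led the J-domain genes, HSPH1 at 91.9 FPKM the exchange factors and STIP1 at 179 FPKM the adaptors. At the low end, HSPB8 stood at 0.193, HSPB3 at 0.447 and DNAJC12 at 0.908 FPKM. In all, 67 of the 70 tested members reached 1 FPKM, 18 reached 100 and 1 reached 1000. Together the members held 1.89% and 1.93% of the counts of the shUCHL1 libraries, 1.95% and 1.88% of the shHSPA8 libraries and 1.73% and 1.69% of the shCON libraries. That share was higher in all 4 knockdown libraries than in both shCON libraries, and HSP90 genes made up most of the gap, at 0.905% and 0.918% in shUCHL1, 0.902% and 0.873% in shHSPA8, and 0.776% and 0.724% in shCON.

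**Figure D1:**
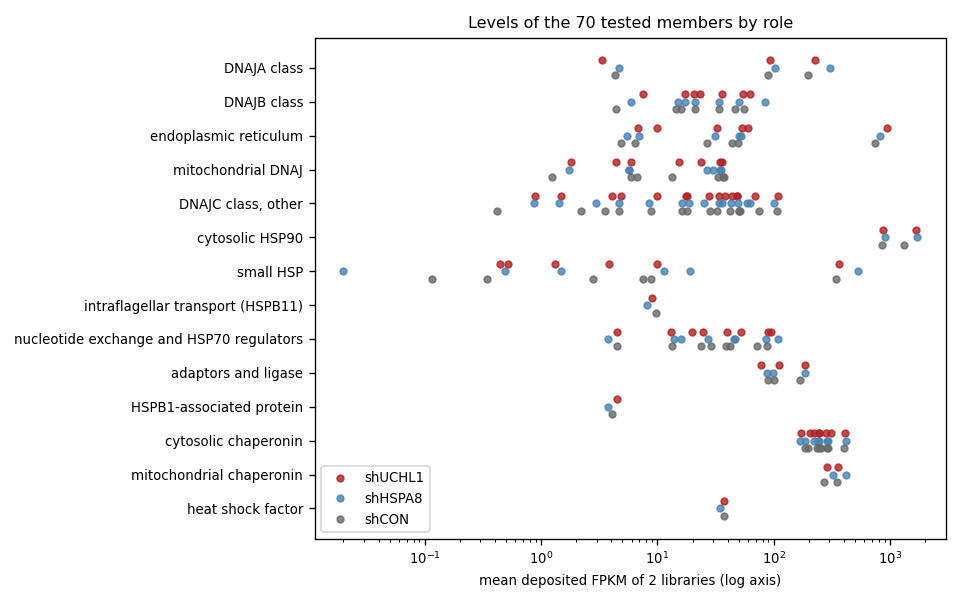
Mean deposited FPKM (log axis) of the 70 tested members in shUCHL1, shHSPA8 and shCON, grouped by role; each point is 1 gene in 1 line. Cytosolic HSP90 genes lie at the right, and the 8 cytosolic chaperonin subunits sit close together. The small heat shock genes spread from 0.02 (HSPB8 in shHSPA8) to 527 FPKM (HSPB1 in shHSPA8).

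Few members changed in shUCHL1, and more rose than fell in shHSPA8. Of the 70, 3 were called higher (beside 8.54% of all 12665 genes) and 3 lower (beside 7.15%) in shUCHL1 against shCON, which is 8.57% called, beside 15.7% of all genes. In shHSPA8 against shCON 9 were higher (12.9%, beside 8.66% of all genes) and 2 lower (2.86%, beside 6.02%), so 11 were called in all (15.7%, beside 14.7% of all genes, a share near the background). Between the knockdown lines, 2 members were higher in shUCHL1 than in shHSPA8 (2.86%, beside 6.20% of all genes) and 10 lower (14.3%, beside 8.35%; 17.1% called in all, beside 14.6%). Of the 2 higher, HSPB8 passed the low-count filter only through the shUCHL1 libraries. The median log2 fold change of the members was near that of all genes each time: -0.03 and 0.01 in shUCHL1 against shCON, 0.03 and -0.00 in shHSPA8 against shCON, and -0.04 and 0.02 between the knockdown lines. The libraries of the lines did not overlap for 42 members in shUCHL1 against shCON (60.0%, beside 56.5% of all genes). They did not overlap for 38 members in shHSPA8 against shCON (54.3%, beside 51.0%), and for 48 between the knockdown lines (68.6%, beside 65.7%). These shares are near the background. Changes were mostly modest. The median absolute log2 fold change was 0.13 for members and 0.20 for all genes in shUCHL1, and 0.15 and 0.21 in shHSPA8. In total 19 members were called in at least 1 comparison and 51 in none. The same count was not made over all genes, so these 2 numbers have no background beside them. Both comparisons with shCON share the same control libraries, so their values stand side by side and are not independent. These counts moved with the libraries used, and the counts called over all genes moved as well. The move is thus not particular to the members, and the closing section sets both side by side. Without 1 library at a time, between 1 (without either shUCHL1 library) and 15 members (without shCON replicate 1) were called in shUCHL1. The count lay between 4 (without either shHSPA8 library) and 13 (without shCON replicate 1) in shHSPA8. It lay between 0 (without shUCHL1 replicate 1; 10 members at an unadjusted edgeR p under 0.05) and 15 (without either shCON library) between the knockdown lines. Scaling by library size in place of TMM moved the median of all genes between the knockdown lines to 0.12. The split of called members then became 3 higher and 4 lower there, and 7 higher and 3 lower in shUCHL1 against shCON. Of all genes called with library size scaling 64.4% were higher between the knockdown lines and 68.1% in shUCHL1 against shCON, beside 42.6% and 54.5% with TMM.

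**Figure D2:**
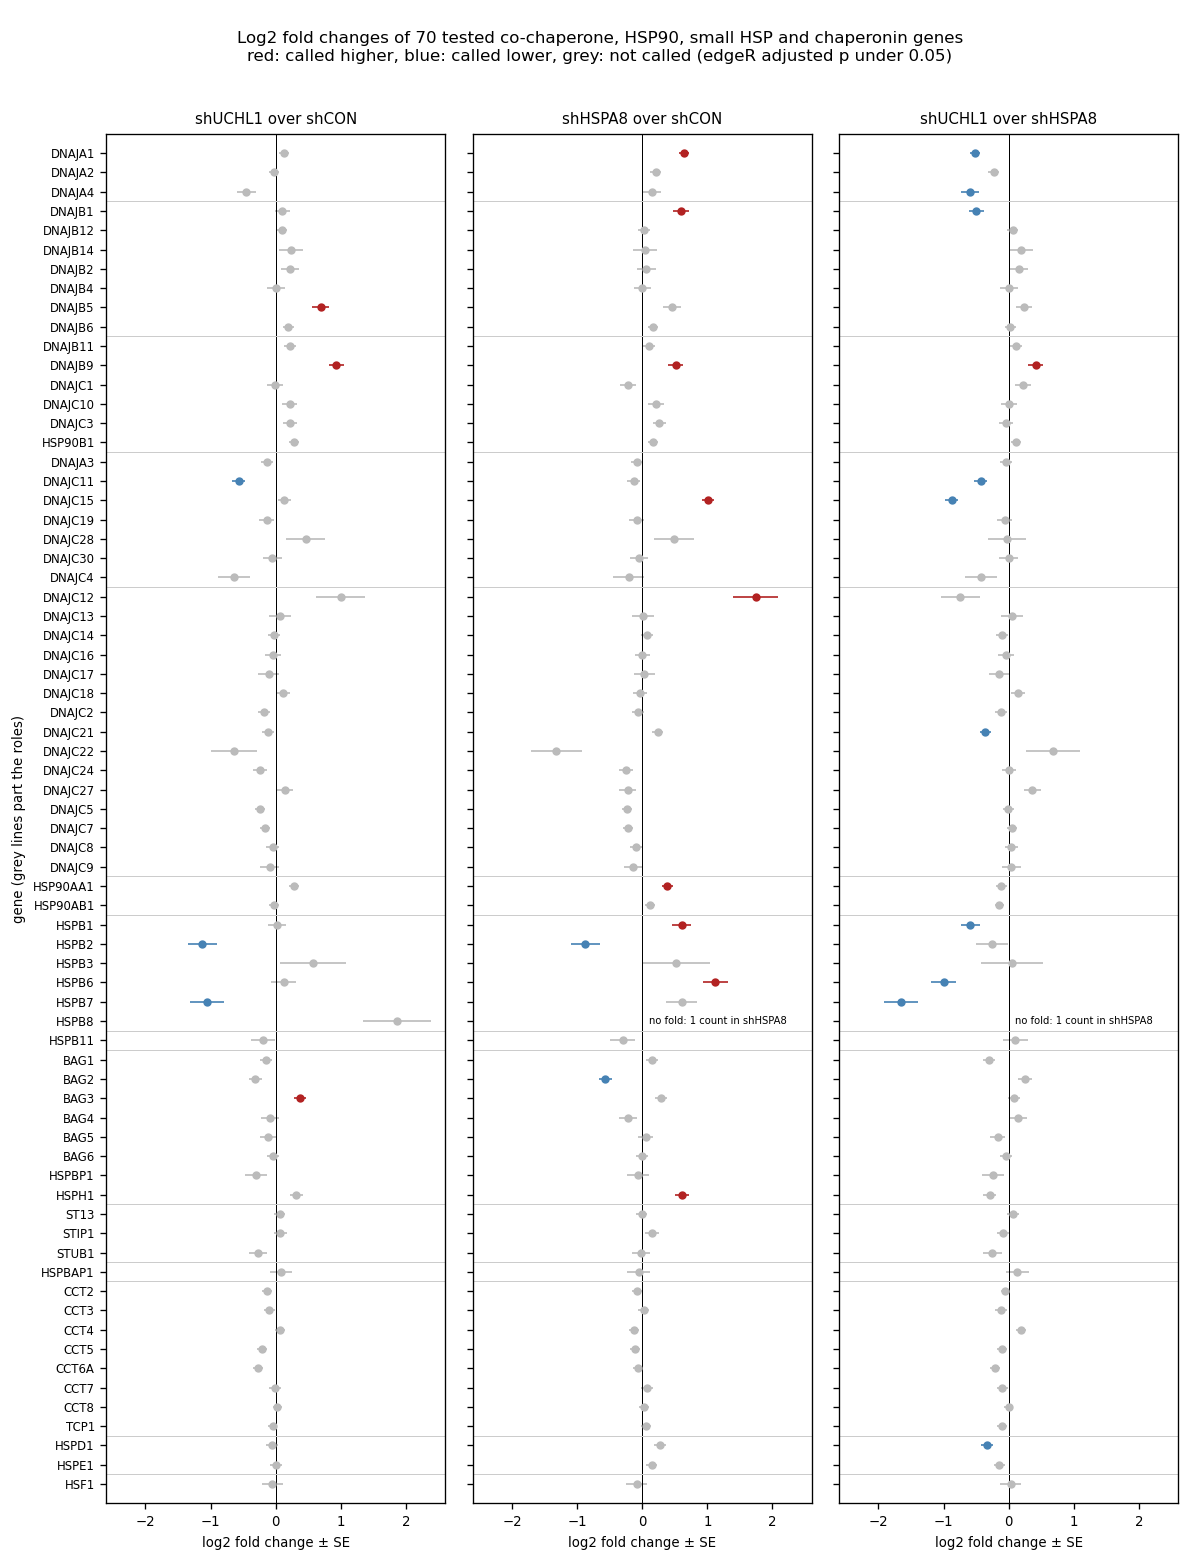
Log2 fold change ± SE of the 70 tested members in 3 comparisons, grouped by role, with called genes in red (higher) or blue (lower). In shHSPA8 over shCON 9 genes are red and 2 blue, and the 8 chaperonin subunits (TCP1 and CCT genes) stay grey, between -0.28 and 0.19, in all 3 panels; no fold is drawn for HSPB8 in the panels with shHSPA8, where it had 1 count.

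Among the J-domain partners of cytosolic HSP70, DNAJA1 and DNAJB1 rose in shHSPA8. DNAJA1 (gene ID 102187862), the most abundant HSP40 of these cells, stood at 525 and 524 CPM in shUCHL1, 758 and 741 CPM in shHSPA8, and 499.7 and 462 CPM in shCON. Both shHSPA8 libraries lay above the other 4, and the rise over shCON was 1.56-fold (log2 fold change 0.64, SE 0.08, edgeR adjusted p = 0.00211). In shUCHL1 DNAJA1 was not called (log2 fold change 0.13, SE 0.08, edgeR adjusted p = 0.337), and shUCHL1 lay below shHSPA8 (log2 fold change -0.51, SE 0.08, edgeR adjusted p = 0.00708). DNAJB1 (gene ID 102172345), the stress-inducible HSP40, had 123 and 133 CPM in shUCHL1, 189 and 173 CPM in shHSPA8, and 108 and 132 CPM in shCON. Again both shHSPA8 libraries were the highest, with a 1.51-fold rise over shCON (log2 fold change 0.60, SE 0.12, edgeR adjusted p = 0.0168). The shUCHL1 libraries overlapped shCON and lay below shHSPA8 (log2 fold change -0.50, SE 0.12, edgeR adjusted p = 0.0343). Under each alternative tried, DNAJA1 kept its call in shHSPA8 against shCON, with edgeR adjusted p of at most 0.0187 without any 1 library. The rise of DNAJB1 in shHSPA8 lost its call in a fit on those lines alone and without shUCHL1 replicate 1 (0.0524), shUCHL1 replicate 2 (0.0529) or shHSPA8 replicate 1 (edgeR adjusted p = 0.0934). In the comparison of shUCHL1 with shHSPA8, DNAJA1 lost its call without either shUCHL1 library or shHSPA8 replicate 1 (edgeR adjusted p from 0.0547 to 0.108). DNAJB1 lost its own there with library size scaling and without any library of either line (edgeR adjusted p from 0.0776 to 0.272).

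Of the other class A and B genes, DNAJA4 and DNAJB5 were called. DNAJA2, a constitutive relative of DNAJA1, stood at 195 and 203 CPM in shUCHL1, 234 and 234 CPM in shHSPA8, and 209.9 and 195 CPM in shCON and was called in no comparison (edgeR adjusted p = 0.146 in shHSPA8 against shCON). Between the knockdown lines it was called in a fit on those lines alone, with the length correction and without either shCON library. DNAJA4 (gene ID 102182172), present at far lower levels, had 8.06 and 9.65 CPM in shUCHL1, 14.0 and 12.9 CPM in shHSPA8, and 11.9 and 12.3 CPM in shCON. It was lower in shUCHL1 when set against shHSPA8 (log2 fold change -0.60, SE 0.14, edgeR adjusted p = 0.0329). DNAJB5 (gene ID 102172263), a minor cytosolic HSP40, stood at 16.3 and 17.0 CPM in shUCHL1, 13.2 and 15.1 CPM in shHSPA8, and 9.81 and 10.8 CPM in shCON. It rose 1.61-fold in shUCHL1 over shCON (log2 fold change 0.69, SE 0.13, edgeR adjusted p = 0.0140). The shHSPA8 libraries also lay above shCON without passing the test (log2 fold change 0.46, SE 0.13, edgeR adjusted p = 0.0628). DNAJB6, which holds back aggregation of polyglutamine proteins, stood at 99.6 and 100.5 CPM in shUCHL1, 98.0 and 98.4 CPM in shHSPA8, and 88.6 and 86.5 CPM in shCON and was not called. The remaining class B genes DNAJB2, DNAJB4, DNAJB12 and DNAJB14 were called in none of the comparisons, with log2 fold changes over shCON between 0.00 (DNAJB4 in shHSPA8) and 0.23 (DNAJB14 in shUCHL1). DNAJB5 lost its call in shUCHL1 against shCON without either shUCHL1 library (edgeR adjusted p = 0.110 without replicate 1 and 0.136 without replicate 2). DNAJA4 lost its call between the knockdown lines with library size scaling, with DESeq2 and without any library of either (edgeR adjusted p from 0.0843 to 0.286).

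**Figure D3:**
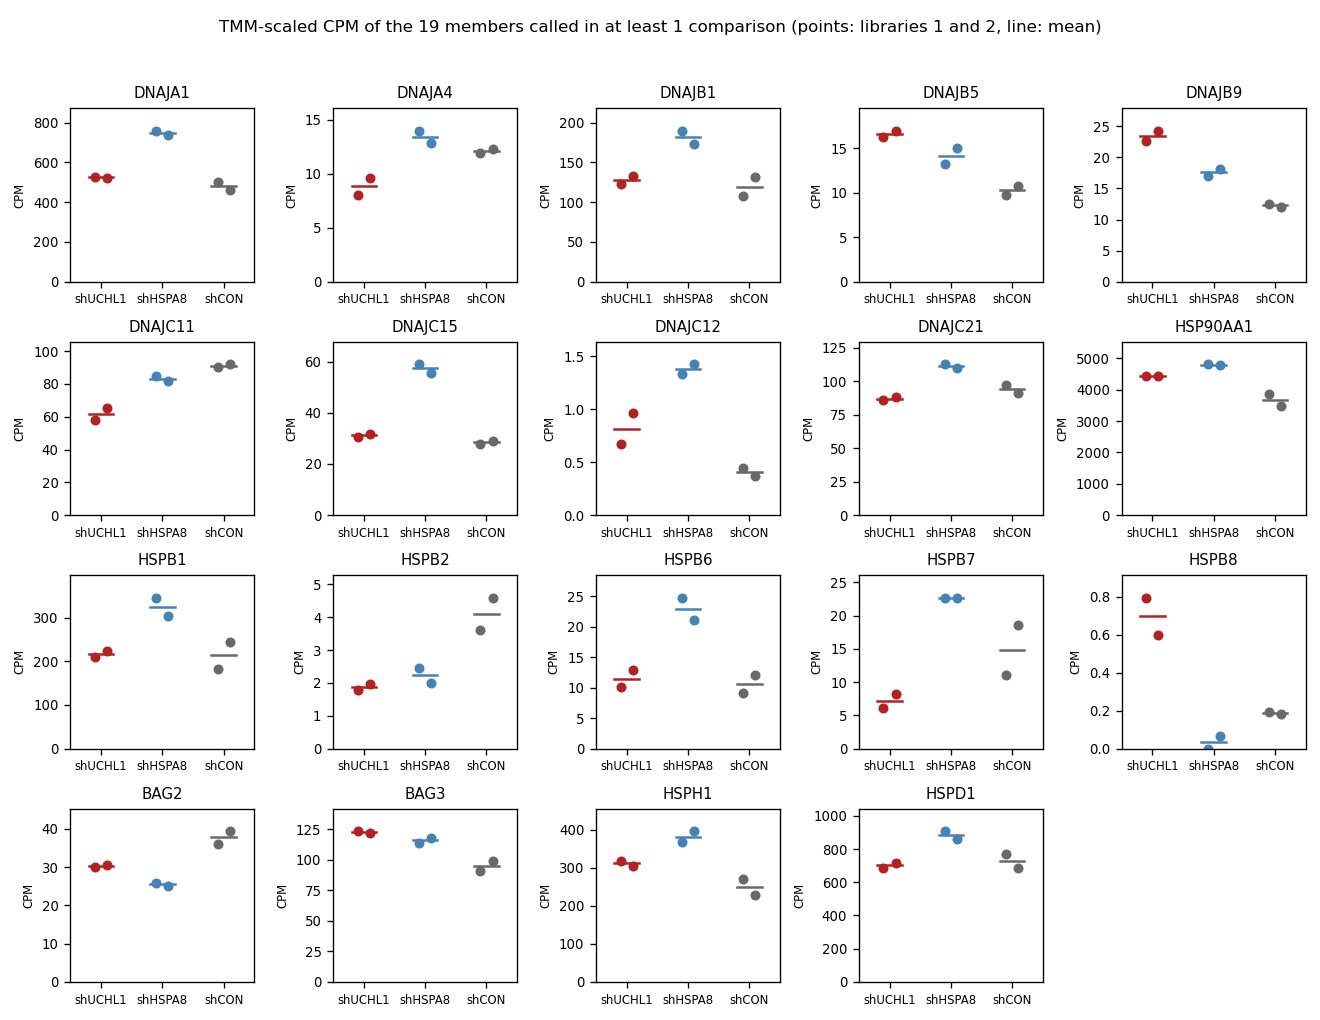
TMM-scaled CPM of the 19 members called in at least 1 comparison, with 1 point per library and a line at the mean of each line of cells; every axis starts at 0. DNAJA1, DNAJB1, DNAJC15, HSPB1, HSPB6 and HSPD1 stand highest in both shHSPA8 libraries, and DNAJB9, DNAJB5 and BAG3 highest in both shUCHL1 libraries.

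Among the exchange factors, HSPH1 and BAG2 changed in shHSPA8 and BAG3 in shUCHL1. HSPH1 (HSP110, gene ID 102187688), an HSP70 relative that acts as exchange factor and disaggregase partner, stood at 317 and 305 CPM in shUCHL1, 367 and 396 CPM in shHSPA8, and 271 and 229 CPM in shCON. It rose 1.53-fold in shHSPA8 (log2 fold change 0.61, SE 0.10, edgeR adjusted p = 0.00862). The shUCHL1 libraries lay between the others and were not called (log2 fold change 0.32, SE 0.10, edgeR adjusted p = 0.0826). BAG2 (gene ID 102181822), an inhibitor of STUB1, fell in shHSPA8: it had 30.1 and 30.6 CPM in shUCHL1, 25.9 and 25.0 CPM in shHSPA8, and 36.1 and 39.4 CPM in shCON. The fall was 1.48-fold (log2 fold change -0.57, SE 0.10, edgeR adjusted p = 0.0113), with all 4 knockdown libraries below both shCON libraries. BAG3 (gene ID 102168602), a stress-inducible factor that steers clients to autophagy, stood at 123 and 122 CPM in shUCHL1, 114 and 117 CPM in shHSPA8, and 90.9 and 98.5 CPM in shCON. In shUCHL1 it was 1.29-fold higher than in shCON (log2 fold change 0.37, SE 0.09, edgeR adjusted p = 0.0309) and did not pass the test in shHSPA8 (log2 fold change 0.29, SE 0.09, edgeR adjusted p = 0.0729). The knockdown lines were not told apart for it (log2 fold change 0.08, SE 0.09, edgeR adjusted p = 0.565). BAG1, BAG4, BAG5, BAG6 and HSPBP1 were called in none of the comparisons, with log2 fold changes over shCON between -0.30 (HSPBP1 in shUCHL1) and 0.15 (BAG1 in shHSPA8). BAG1 and HSPH1 were called between the knockdown lines in a fit on those lines alone, with the length correction and without either shCON library. In shUCHL1 against shCON, HSPH1 was called with library size scaling, with the length correction and without shCON replicate 1, and BAG2 without shCON replicate 1. In shHSPA8 against shCON, BAG3 was called with the length correction and without shCON replicate 2. Calls were lost for BAG3 in shUCHL1 (with DESeq2, in a fit on shUCHL1 and shCON alone, and without any 1 library other than shCON replicate 2, at an edgeR adjusted p from 0.0617 to 0.284). In shHSPA8 BAG2 lost its call without either shHSPA8 library (edgeR adjusted p = 0.0605 and 0.0787 without replicate 1 and 2), and HSPH1 without the second of them (edgeR adjusted p = 0.0557 without shHSPA8 replicate 2).

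None of the adaptors and the ligase between HSP70 and HSP90 was called. STIP1 (HOP) stood at 325 and 341 CPM in shUCHL1, 363 and 342 CPM in shHSPA8, and 289 and 345 CPM in shCON. ST13 (HIP) stood at 330.4 and 333 CPM in shUCHL1, 314 and 318 CPM in shHSPA8, and 337 and 299 CPM in shCON. STUB1, the ligase, stood at 75.1 and 78.2 CPM in shUCHL1, 96.9 and 85.3 CPM in shHSPA8, and 80.3 and 104 CPM in shCON. The edgeR test called 0 of these 3 genes in each comparison, with 0 at an unadjusted p under 0.05, and DESeq2 and limma-voom called 0 as well. Of all genes edgeR called 15.7% in shUCHL1 against shCON, 14.7% in shHSPA8 against shCON and 14.6% between the knockdown lines. With 3 genes a count of 0 is coarse. For STUB1 the shCON libraries differed by more than the means of any pair of lines, and all 6 of its counts were fractional estimates, as were those of BAG4. STUB1 was called in shUCHL1 against shCON without shCON replicate 1.

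Of the cytosolic HSP90 genes, the inducible isoform rose in shHSPA8. HSP90AA1 (gene ID 100860851), the inducible isoform, stood at 4436 and 4455 CPM in shUCHL1, 4811 and 4795 CPM in shHSPA8, and 3865 and 3479.9 CPM in shCON. All 4 knockdown libraries lay above both shCON libraries. The difference from shCON passed the test in shHSPA8 (1.31-fold, log2 fold change 0.39, SE 0.08, edgeR adjusted p = 0.0188) and missed it in shUCHL1 (log2 fold change 0.28, SE 0.08, edgeR adjusted p = 0.0578). The direct comparison of shUCHL1 with shHSPA8 did not pass the test (log2 fold change -0.11, SE 0.08, edgeR adjusted p = 0.385). HSP90AB1, the constitutive isoform, had 1927 and 1968 CPM in shUCHL1, 2219 and 2077 CPM in shHSPA8, and 2026 and 1936 CPM in shCON and was not called, at -0.02 in shUCHL1 and 0.12 in shHSPA8 on the log2 scale. The FPKM ratio of HSP90AA1 to HSP90AB1 was 1.93 and 1.90 in shUCHL1, 1.81 and 1.93 in shHSPA8, and 1.60 and 1.51 in shCON, so it was higher in every knockdown library than in either control library. HSP90AA1 in shHSPA8 lost its call in a fit on shHSPA8 and shCON alone and without any library of shUCHL1 or shHSPA8 (edgeR adjusted p from 0.0759 to 0.0856). In shUCHL1 it was called without shCON replicate 1, with a length correction, with limma-voom and with library size scaling.

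In the endoplasmic reticulum, 1 of 6 members passed the test. That is 16.7% in each comparison, beside 15.7% (shUCHL1 against shCON), 14.7% (shHSPA8 against shCON) and 14.6% (between the knockdown lines) of all genes. DNAJB9 (ERdj4, gene ID 102187454), a stress-induced partner of the HSP70 of that compartment, rose in both knockdown lines: it had 22.7 and 24.2 CPM in shUCHL1, 17.1 and 18.1 CPM in shHSPA8, and 12.5 and 12.1 CPM in shCON. The rise was 1.91-fold in shUCHL1 (log2 fold change 0.93, SE 0.11, edgeR adjusted p = 0.00270) and 1.43-fold in shHSPA8 (log2 fold change 0.52, SE 0.12, edgeR adjusted p = 0.0271). The level in shUCHL1 exceeded that in shHSPA8 (log2 fold change 0.41, SE 0.11, edgeR adjusted p = 0.0497, just under the threshold). The lines did not overlap for this gene. HSP90B1 (GRP94), the HSP90 of the compartment, stood at 2323 and 2390.2 CPM in shUCHL1, 2206 and 2162 CPM in shHSPA8, and 2036 and 1855 CPM in shCON, in the same order of lines. It did not pass the test in shUCHL1 (log2 fold change 0.28, SE 0.08, edgeR adjusted p = 0.0553), where it was called with library size scaling, limma-voom and the length correction and without shCON replicate 1. Among genes named after their values were seen, DNAJB11 (ERdj3), DNAJC3 (P58IPK) and DNAJC10 (ERdj5, a disulphide reductase) had log2 fold changes of 0.22, 0.22 and 0.21 in shUCHL1 and 0.11, 0.26 and 0.21 in shHSPA8 and were not called, and neither was DNAJC1 (ERdj1). In shUCHL1 the call of DNAJB9 held under each alternative tried, with edgeR adjusted p of at most 0.0446. In shHSPA8 it was lost with DESeq2, in a fit on shHSPA8 and shCON alone and without any library of shUCHL1 or shHSPA8 (edgeR adjusted p from 0.0896 to 0.141). The call against shHSPA8 was lost with RLE scaling, with DESeq2, with no low-count filter and without the same libraries (edgeR adjusted p from 0.132 to 0.336).

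The mitochondrial J-domain genes held 1 change against shCON in each knockdown line, in different genes. Of 7 tested this is 14.3% in each, beside 15.7% of all genes in shUCHL1 and 14.7% in shHSPA8. DNAJC15 (MCJ, gene ID 102177726), a protein of the inner membrane linked to protein import and to a brake on respiratory complex I, rose in shHSPA8. It stood at 30.7 and 31.7 CPM in shUCHL1, 58.9 and 55.7 CPM in shHSPA8, and 28.0 and 29.0 CPM in shCON. The rise over shCON was 2.01-fold (log2 fold change 1.01, SE 0.10, edgeR adjusted p = 0.000719). The level in shUCHL1 was 1.84-fold lower than in shHSPA8 (log2 fold change -0.88, SE 0.10, edgeR adjusted p = 0.00235) and near that of shCON (log2 fold change 0.13, SE 0.10, edgeR adjusted p = 0.425). DNAJC11 (gene ID 102178928), which binds the complex that shapes the cristae, fell in shUCHL1: it had 57.8 and 65.4 CPM in shUCHL1, 84.8 and 81.5 CPM in shHSPA8, and 90.5 and 91.9 CPM in shCON. The fall was 1.48-fold against shCON (log2 fold change -0.57, SE 0.10, edgeR adjusted p = 0.00982), and shUCHL1 was also lower than shHSPA8 (log2 fold change -0.43, SE 0.10, edgeR adjusted p = 0.0286). DNAJA3, DNAJC4, DNAJC19 (a subunit of the import motor), DNAJC28 and DNAJC30 were not called. DNAJC15 in shHSPA8 against shCON kept its call under each alternative tried (edgeR adjusted p of at most 0.00663 without any 1 library). Between shUCHL1 and shHSPA8 the difference of DNAJC15 lost its call without shUCHL1 replicate 1 (edgeR adjusted p = 0.0519). DNAJC11 in shUCHL1 against shCON lost its call without shUCHL1 replicate 1 (edgeR adjusted p = 0.140) or replicate 2 (0.0597). Against shHSPA8 it lost its call with library size scaling and without any library of the lines compared (edgeR adjusted p from 0.0937 to 0.301).

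Of the 15 other DNAJC genes, which serve endosomes, ribosomes, splicing and secretion, 2 were called. That was 1 in shHSPA8 against shCON and 1 between the knockdown lines (6.67% each, beside 14.7% and 14.6% of all genes). DNAJC12 (gene ID 102180284), a partner of HSP70 that folds aromatic amino acid hydroxylases, was scarce, with 27 counts summed over shUCHL1, 43 over shHSPA8 and 13 over shCON. It stood at 0.672 and 0.959 CPM in shUCHL1, 1.33 and 1.42 CPM in shHSPA8, and 0.443 and 0.367 CPM in shCON, a 3.35-fold rise in shHSPA8 over shCON (log2 fold change 1.74, SE 0.34, edgeR adjusted p = 0.0163). DNAJC21 (gene ID 102184844), a ribosome assembly factor, had 85.8 and 88.1 CPM in shUCHL1, 113 and 110.3 CPM in shHSPA8, and 97.3 and 91.7 CPM in shCON. It was lower in shUCHL1 when set against shHSPA8 (log2 fold change -0.36, SE 0.09, edgeR adjusted p = 0.0352), with shCON between them. DNAJC7, DNAJC5 and DNAJC24, named after their values were seen, lay lower in all 4 knockdown libraries than in both shCON libraries and were not called. DNAJC7 binds HSP70 and HSP90 (log2 fold change over shCON -0.17 in shUCHL1 and -0.22 in shHSPA8). DNAJC5 encodes the cysteine string protein of secretory vesicles (-0.24 and -0.23 in the same order). DNAJC24 is a factor of diphthamide synthesis (-0.25 and -0.25). DNAJC2 (ribosome-associated), DNAJC8 and DNAJC17 (splicing), DNAJC9 (histone folding), DNAJC13 (endosomes), DNAJC14, DNAJC16, DNAJC18, DNAJC22 and DNAJC27 were not called either. DNAJC12 lost its call with DESeq2 and without shHSPA8 replicate 1 (0.0696), shHSPA8 replicate 2 (0.0863) or shCON replicate 2 (edgeR adjusted p = 0.0588). DNAJC21 lost its call with library size scaling and without any library of the lines compared (edgeR adjusted p from 0.119 to 0.301).

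Of 6 small heat shock genes, 2 fell in shUCHL1 against shCON (33.3%, beside 7.15% of all genes). In shHSPA8 against shCON 2 rose (33.3%, beside 8.66%) and 1 fell (16.7%, beside 6.02%). With 6 genes these shares are coarse, and HSPB3 and HSPB8 averaged under 1 CPM in each line. HSPB1 (HSP27, gene ID 108633906), which guards actin filaments and holds misfolding proteins, stood at 209.9 and 222 CPM in shUCHL1, 345 and 304 CPM in shHSPA8, and 183 and 244 CPM in shCON. Both shHSPA8 libraries were above the rest, 1.52-fold over shCON (log2 fold change 0.61, SE 0.14, edgeR adjusted p = 0.0327). The shUCHL1 libraries lay within the range of shCON and below shHSPA8 (log2 fold change -0.59, SE 0.14, edgeR adjusted p = 0.0366). HSPB6 (HSP20, gene ID 102172571), known from smooth and cardiac muscle, had 10.0 and 12.9 CPM in shUCHL1, 24.7 and 21.1 CPM in shHSPA8, and 9.05 and 12.0 CPM in shCON. It rose 2.18-fold in shHSPA8 (log2 fold change 1.12, SE 0.19, edgeR adjusted p = 0.00857) and was 2.00-fold lower in shUCHL1 when set against shHSPA8 (log2 fold change -1.0, SE 0.19, edgeR adjusted p = 0.0153). HSPB7 (cvHSP, gene ID 108637007), a chaperone of cardiac and other muscle, stood at 6.11 and 8.27 CPM in shUCHL1, 22.6 and 22.7 CPM in shHSPA8, and 11.1 and 18.6 CPM in shCON. Here shCON stood in the middle, and shUCHL1 was 2.07-fold lower than shCON (log2 fold change -1.05, SE 0.26, edgeR adjusted p = 0.0362). The level in shHSPA8 was above shCON without passing the test (log2 fold change 0.61, SE 0.24, edgeR adjusted p = 0.146). The level in shUCHL1 was 3.15-fold lower than in shHSPA8 (log2 fold change -1.65, SE 0.26, edgeR adjusted p = 0.00756).

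HSPB2 (gene ID 102175970), which pairs with HSPB3 in muscle, fell in both knockdown lines: it had 1.77 and 1.98 CPM in shUCHL1, 2.47 and 2.00 CPM in shHSPA8, and 3.61 and 4.59 CPM in shCON. It was 2.18-fold lower in shUCHL1 (log2 fold change -1.13, SE 0.23, edgeR adjusted p = 0.0170) and 1.83-fold lower in shHSPA8 (log2 fold change -0.87, SE 0.22, edgeR adjusted p = 0.0409). Its next annotated neighbour in RefSeq ARS1.2 is CRYAB, the small heat shock protein alpha-B-crystallin, named for its place after its values were seen. CRYAB stood at 80.8 and 85.3 CPM in shUCHL1, 63.8 and 58.0 CPM in shHSPA8, and 44.4 and 58.3 CPM in shCON. It rose in shUCHL1 (log2 fold change 0.69, SE 0.14, edgeR adjusted p = 0.0173). The neighbours thus differed in direction in shUCHL1. HSPB8 (HSP22, a partner of BAG3) was close to absent, with 23 counts summed over shUCHL1, 1 over shHSPA8 and 6 over shCON. It was called between the knockdown lines (edgeR adjusted p = 0.0134), with a ratio of shUCHL1 to shHSPA8, scaled to library size, of 21.8 (95% exact counting interval 3.54 to 897) and of shUCHL1 to shCON of 3.73 (1.47 to 11.2; not called, edgeR adjusted p = 0.0536). The difference from shCON was called with library size scaling, in a fit on those lines alone and with the length correction. Those intervals cover counting error only. HSPB8 passed the low-count filter only through shUCHL1 (13 and 10 counts, beside 0 and 1 in shHSPA8 and 3 and 3 in shCON). Its call and ratios thus come from a gene admitted by the line where it was high, and are given as description only. HSPB3 was not called and neither was HSPB11, whose product is a subunit of the intraflagellar transport machinery and not a heat shock chaperone.

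Most calls among the small heat shock genes were lost in some fits that left out a library, in part also a library outside the comparison. Such fits have fewer samples, and calls over all genes fell in several of them too. In shHSPA8 against shCON, HSPB6 kept its call under each alternative tried (edgeR adjusted p of at most 0.0453). HSPB1 lost its call there in a fit on those lines alone and without any library of shUCHL1 or shHSPA8 (edgeR adjusted p from 0.0639 to 0.150). HSPB2 lost its call there with DESeq2, in a fit on those lines alone and without any library other than shCON replicate 1 (edgeR adjusted p from 0.0902 to 0.196). In shUCHL1 against shCON, HSPB2 and HSPB7 lost theirs without either shUCHL1 library or shCON replicate 2 (edgeR adjusted p from 0.0562 to 0.144 and from 0.0750 to 0.225), and HSPB2 also with DESeq2 and HSPB7 in a fit on those lines alone. HSPB7 was called in shHSPA8 against shCON without shCON replicate 2. Between the knockdown lines HSPB7 lost its call without shUCHL1 replicate 1 (edgeR adjusted p = 0.0783). HSPB6 and HSPB8 lost theirs without either shUCHL1 library or shHSPA8 replicate 1 (edgeR adjusted p from 0.0609 to 0.144 and from 0.0663 to 0.103; HSPB8 also with DESeq2), as did HSPB1 with library size scaling and without any library of the lines compared (edgeR adjusted p from 0.0693 to 0.247). Of 9 myoid and fibroblast markers, 4 were called lower in shUCHL1 than in shCON (44.4%, beside 7.15% of all genes) and 1 higher (DCN). The 4 were CNN1 (14.7-fold lower), DES (14.4-fold), ACTA2 (2.98-fold) and TAGLN (2.59-fold). MYH11, also a contractile gene, was not called (log2 fold change 0.38). In shHSPA8 2 were called higher, the matrix genes DCN and COL1A2, and none of the contractile genes was called. The list summed to 18020 and 18843 CPM in shUCHL1, 21906 and 23075 CPM in shHSPA8, and 17326 and 19410 CPM in shCON, with no member at 0. Most of that sum came from COL1A1 and COL1A2, so it does not show the falls of the contractile genes. Whether these markers have a part in the differences of HSPB2, HSPB6 and HSPB7 was not tested. A change in the share of a cell type cannot be told apart from a change within cells in bulk RNA.

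No subunit of the cytosolic chaperonin passed the test. Its ring is built from the products of TCP1, CCT2, CCT3, CCT4, CCT5, CCT6A, CCT7 and CCT8. In edgeR 0 of these 8 genes were called in shUCHL1 against shCON (beside 15.7% of all genes). Likewise 0 were called in shHSPA8 against shCON (beside 14.7%) and 0 between the knockdown lines (beside 14.6%). An unadjusted edgeR p under 0.05 was found for 2, 0 and 2 of the 8 in the same order. Beside them stand 3712, 3709 and 3976 of all 12665 genes. With 8 genes these counts are coarse. DESeq2 and limma-voom also called 0 in each comparison. Log2 fold changes ran from -0.28 to 0.07 in shUCHL1 and from -0.12 to 0.08 in shHSPA8, with SE of 0.07 to 0.09. The lowest value belonged to CCT6A. It stood at 375 and 392 CPM in shUCHL1, 435 and 448 CPM in shHSPA8, and 472 and 456 CPM in shCON. In shUCHL1 against shCON it was just short of the threshold (log2 fold change -0.28, SE 0.08, edgeR adjusted p = 0.0505). CCT6A passed it with RLE scaling, with the length correction and without either shCON library, and CCT5 with the length correction; between the knockdown lines CCT4 was called with library size scaling and CCT6A with the length correction. In FPKM the most and least abundant subunits differed 2.42-fold and 2.43-fold in shUCHL1, 2.50-fold and 2.48-fold in shHSPA8, and 2.14-fold and 2.24-fold in shCON. TCP1 was the highest in every library, and the lowest was CCT6A in shUCHL1 and CCT4 in shHSPA8 and shCON.

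Of the mitochondrial chaperonin genes, HSPD1 differed between the knockdown lines. HSPD1 (HSP60, gene ID 100861238), the chamber, stood at 687 and 715 CPM in shUCHL1, 907 and 858 CPM in shHSPA8, and 771 and 689 CPM in shCON. It was lower in shUCHL1 when set against shHSPA8 (log2 fold change -0.33, SE 0.09, edgeR adjusted p = 0.0446). In shHSPA8 against shCON it did not pass the test (log2 fold change 0.27, SE 0.09, edgeR adjusted p = 0.0810) although both libraries lay above; there it was called with the length correction and without shCON replicate 1. HSPE1 (HSP10), the lid of the chamber, had 242 and 256 CPM in shUCHL1, 285 and 266 CPM in shHSPA8, and 239 and 258 CPM in shCON and was not called. Its FPKM ratio to HSPD1 was 0.804 and 0.821 in shUCHL1, 0.794 and 0.744 in shHSPA8, and 0.685 and 0.880 in shCON, so the control libraries spanned the others. These genes overlap each other in the RefSeq annotation. HSPD1 lost its call between the knockdown lines with library size scaling and without any library of either (edgeR adjusted p from 0.106 to 0.325).

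The transcript of HSF1 itself was not called in any comparison. It stood at 59.3 and 61.1 CPM in shUCHL1, 62.1 and 55.5 CPM in shHSPA8, and 51.9 and 72.8 CPM in shCON, and the shCON libraries enclosed the other 4. Its log2 fold change was -0.05 in shUCHL1 (SE 0.16) and -0.08 in shHSPA8 (SE 0.16), both against shCON. HSPBAP1, which binds HSPB1, was not called either.

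The counts of 6 partners were also set against those of HSPA8, as a description of their balance. HSPA8 was 1.58-fold lower in shHSPA8 and 1.30-fold higher in shUCHL1 than in shCON, so a gene at the CPM of shCON would have a ratio 1.58-fold higher in shHSPA8 and 1.30-fold lower in shUCHL1. For every 100 HSPA8 counts there were 10.0 and 9.81 DNAJA1 counts in shUCHL1, 28.8 and 29.3 in shHSPA8, and 12.4 and 11.2 in shCON. The same count for DNAJB1 was 2.35 and 2.49 in shUCHL1, 7.20 and 6.85 in shHSPA8, and 2.68 and 3.20 in shCON. For HSPH1 it was 6.03 and 5.72 in shUCHL1, 13.9 and 15.6 in shHSPA8, and 6.74 and 5.56 in shCON. All 3 ratios were highest in both shHSPA8 libraries. HSP90AA1 had 84.5 and 83.4 counts per 100 HSPA8 counts in shUCHL1, 183 and 189.7 in shHSPA8, and 96.2 and 84.6 in shCON, so its counts exceeded those of HSPA8 in shHSPA8 and not in the other lines. DNAJA2 had 3.70 and 3.80 in shUCHL1, 8.88 and 9.26 in shHSPA8, and 5.23 and 4.75 in shCON. DNAJA2 was not called, and its ratio was highest in both shHSPA8 libraries too. These ratios lie within a library and do not depend on scaling, the change of HSPA8 is part of each of them, and no test was run on them.

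**Figure D4:**
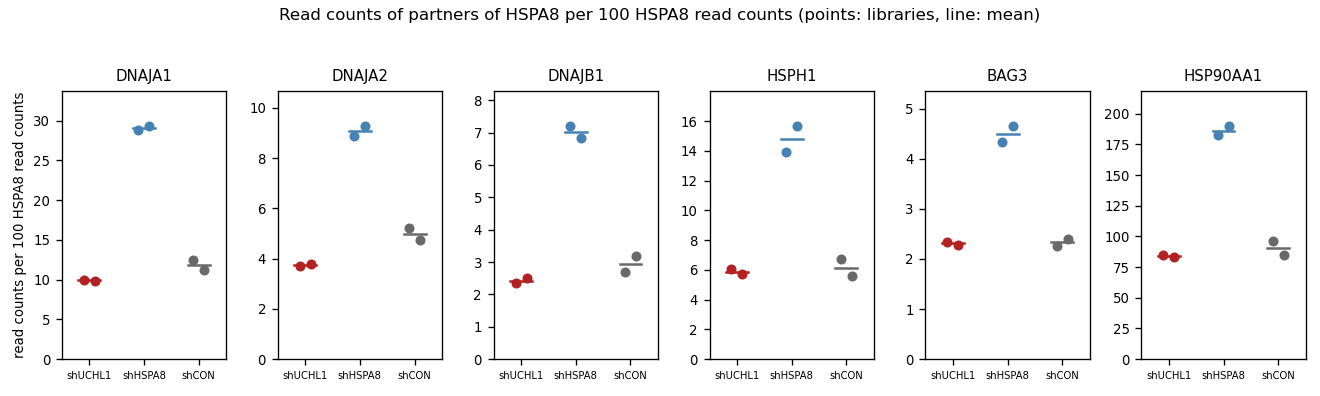
Read counts of DNAJA1, DNAJA2, DNAJB1, HSPH1, BAG3 and HSP90AA1 per 100 HSPA8 read counts in the 6 libraries (points) with the mean of each line of cells (bars across the points). Both shHSPA8 libraries lie far above the other 4 in each panel, for example at 28.8 and 29.3 for DNAJA1 against 12.4 and 11.2 in shCON, and a gene at the CPM of shCON would lie 1.58-fold higher there.

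The genes of the wider chaperone network outside the rule came from a list of 57 genes, of which 53 had counts and all 53 were tested. In shUCHL1 against shCON 7 were higher and 3 lower (18.9%, beside 15.7% of all genes), and in shHSPA8 against shCON 3 were higher and 3 lower (11.3%, beside 14.7%). The HSP70 family made up 6 of the 7 rises in shUCHL1, among 12 tested (50%, beside 8.54% of all genes called higher). HSPA8, the target of the other line, is 1 of the 6. HSPA6, a strictly inducible HSP70 in human cells, stood at 12.7 and 13.9 CPM in shUCHL1, 9.92 and 8.08 CPM in shHSPA8, and 3.29 and 2.69 CPM in shCON. It was higher in both knockdown lines (log2 fold change 2.15, SE 0.18 in shUCHL1, edgeR adjusted p = 0.000611; log2 fold change 1.59, SE 0.19 in shHSPA8, edgeR adjusted p = 0.00186). HSPA5 (BiP), the HSP70 of the endoplasmic reticulum to which DNAJB9 binds, had 2129 and 2203 CPM in shUCHL1, 1184 and 1163 CPM in shHSPA8, and 1332 and 1274 CPM in shCON. It rose in shUCHL1 (log2 fold change 0.73, SE 0.07, edgeR adjusted p = 0.00113) but was not called in shHSPA8 (log2 fold change -0.15, SE 0.07, edgeR adjusted p = 0.222). The difference between the knockdown lines passed the test (log2 fold change 0.88, SE 0.07, edgeR adjusted p = 0.000876). Of 17 HSP90 partners, 1 was called in each comparison with shCON (5.88%, beside 15.7% of all genes in shUCHL1 and 14.7% in shHSPA8). AHSA1, the activator of the HSP90 ATPase, rose in shHSPA8 (log2 fold change 0.37, SE 0.08, edgeR adjusted p = 0.0266) and TRAP1, the mitochondrial HSP90, fell in shUCHL1 (log2 fold change -0.52, SE 0.12, edgeR adjusted p = 0.0261). Among 9 prefoldin subunits and chaperonin partners, which feed the cytosolic chaperonin, 2 fell in each knockdown line and none rose. That is 22.2% lower in each, beside 7.15% of all genes in shUCHL1 and 6.02% in shHSPA8. PFDN4, a prefoldin subunit, had 83.5 and 83.5 CPM in shUCHL1, 86.8 and 80.6 CPM in shHSPA8, and 109.5 and 117 CPM in shCON. It was lower in shUCHL1 (log2 fold change -0.44, SE 0.09, edgeR adjusted p = 0.0190) and in shHSPA8 (log2 fold change -0.44, SE 0.09, edgeR adjusted p = 0.0203) than in shCON. Between the knockdown lines 4 of the 53 were higher and 4 lower in shUCHL1 (15.1%, beside 14.6% of all genes). The 2 lower ones with the smallest p were PDCL3, a chaperonin partner (log2 fold change -0.69, SE 0.10, edgeR adjusted p = 0.00551), and SIL1, the exchange factor of HSPA5 (log2 fold change -0.43, SE 0.11, edgeR adjusted p = 0.0382).

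Members with too few reads were left out of the tests. DNAJB13 had 1, DNAJB7 2, HSPB9 4 and DNAJC6 15 counts summed over 6 libraries. DNAJB13 and HSPB9 are known from testis and spermatids in mammals, and DNAJC6 (auxilin) from neurons. DNAJB3, DNAJB8, DNAJC5B and DNAJC5G have blank entries and were not analysed here.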

How the data were processed

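RNA was sequenced from 6 libraries (3 lines, 2 libraries each), and GEO's labels gave each library's line. The authors deposited 1 table with 2 kinds of value per library. Its read counts are expected counts per gene, per the file headers and the values (1014 to 1117 genes per library are not whole), and were rounded to whole numbers for the tests. The authors also deposited FPKM, per the file headers, used only to compare levels between genes. Trimmomatic 0.36, a read trimmer, is the tool that the submitters' processing notes name. For aligner, counter, genome build and strandedness, the choice made is not given in the sources used here.

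Genes passing edgeR's filterByExpr were scaled by TMM and tested with edgeR 4.0.16 (quasi-likelihood F test, R 4.3.3), with all 6 libraries sharing 1 estimate of the spread. P-values were adjusted over all 12665 genes by Benjamini-Hochberg, with a threshold of 0.05; SE is the log2 fold change over the root of F. Alternatives were RLE and library size scaling, DESeq2 1.42.0, limma-voom (3.58.1), no low-count filter, a stricter filter (1 CPM in 2 libraries and 50 summed counts), the lines compared alone, a correction for transcript length (lowess, span 0.3), a replicate block, and leaving out each library. A length correction was tried since libraries differed in how level followed length, also between replicates of a line. The slope of log2 level on log2 length was 0.05 and 0.02 in shUCHL1, -0.07 and 0.03 in shHSPA8, and 0.05 and -0.09 in shCON. Intervals on ratios of counts are exact, at 95%, and cover counting error only.

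The members, gene lists and markers were chosen with earlier results of these data known. Named were all called members, the direct partners of HSPA8 and HSP90, HSF1, the chaperonin subunits, HSPB1, HSPB6, HSPB7 and HSPB8, the extremes of ranges, and up to 2 called genes per direction and comparison from the list of other chaperones, with exceptions marked in the text. All 74 members with counts matched gene IDs in RefSeq ARS1.2, which gave neighbours and overlaps only: 17 tested members overlap another annotated gene, and without the strand setting their shared reads cannot be told apart. Sequences and promoter motifs were not analysed here.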

Additional observations from a re-analysis of the deposited data

How the results depend on the processing

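No called member changed direction under any alternative run. For the 6 calls of members in shUCHL1 against shCON, 1 (DNAJB9) held under every alternative run; in shHSPA8 against shCON 3 of 11 did (DNAJA1, DNAJC15 and HSPB6), and between the knockdown lines 0 of 12, counting each change of tool, filter, scaling, block or library. Leaving out 1 library at a time gave 1 to 15 called members in shUCHL1 against shCON, 4 to 13 in shHSPA8 against shCON and 0 to 15 between the knockdown lines, and 528 to 2615, 920 to 2416 and 257 to 3083 called genes over the whole table. A line left with 1 library was assumed to vary like the others. Library size scaling called 10 members in shUCHL1 against shCON (14.3%, beside 15.9% of all genes) and 7 between the knockdown lines (10.0%, beside 16.4%). The length correction called 14 of 70 members in shUCHL1 against shCON (beside 21.5% of all genes, 2702) and 16 between the knockdown lines (22.9%, beside 22.8%, 2874). In shHSPA8 against shCON it called 16 members (22.9%, beside 21.2% of all genes, 2673). A fit on the lines compared alone called 6 members in shHSPA8 against shCON (8.82%, beside 8.93% of all genes, 1104) and 15 between the knockdown lines (21.4%, beside 24.8%, 3116). The cause of these moves was not tested, except that fits without a library have fewer samples.

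Libraries share replicate numbers in the labels, which do not say whether a number marks a shared culture or batch. The correlation of replicate 1 minus replicate 2 was -0.23 for shUCHL1 with shHSPA8, 0.23 for shUCHL1 with shCON and -0.54 for shHSPA8 with shCON. The trend of level with transcript length also differed between replicates of a line, so these values cannot decide whether the numbers pair libraries. With the replicate block, 5 members and 1230 genes were called in shUCHL1 against shCON, 7 members and 1131 genes in shHSPA8 against shCON, and 5 members and 923 genes between the knockdown lines. The calls not made with the block were those of BAG3 in shUCHL1 against shCON (edgeR adjusted p = 0.0998), of DNAJB9, HSP90AA1, HSPB1 and HSPB2 in shHSPA8 against shCON (edgeR adjusted p from 0.0597 to 0.0903), and of DNAJA4, DNAJB1, DNAJB9, DNAJC11, DNAJC21, HSPB1 and HSPD1 between the knockdown lines (edgeR adjusted p from 0.0717 to 0.129). With the numbers of shHSPA8 crossed, an alternative chosen after seeing the data, 19 members and 3978 genes, 21 members and 3883 genes, and 19 members and 4453 genes were called in the same order of comparisons. With 2 libraries a line, genes with few counts, such as HSPB8 and DNAJC12, are measured least precisely.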
